A study of Mus musculus with 20 samples.

Results

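The 5 loci described here hold the RNA-binding protein genes Lin28a and Lin28b and the MYC family transcription factor genes Myc, Mycn and Mycl, and they were followed by ATAC-seq, which maps DNA open to the Tn5 transposase. All peaks within 20 kb of the span of each gene in the mouse mm10 annotation were taken from the 20 libraries, and peaks that overlapped were merged into regions. This gave 65 regions of the 335858 found in the whole genome, with 10 at Lin28a, 20 at Lin28b, 11 at Myc, 8 at Mycn and 16 at Mycl. Of these, 23 were promoter regions, within 2 kb of any annotated start site of the gene, and 42 were distal.

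The study set out to turn mouse embryonic fibroblasts (MEFs) into pluripotent cells with retroviral Oct4 together with either Nanog or NanogN70, in which the part of SS18 that binds the remodelling ATPase BRG1 is joined through a linker to the N-terminus of NANOG. Each path, Nanog+Oct4 and NanogN70+Oct4, had 1 library per time point, taken at 0, 1, 3 and 5 days (early) and at 7, 8, 10 and 12 days (late), and untreated MEFs had 1 library and embryonic stem cells (ESCs) had 3. Both paths started from MEFs of E13.5 embryos that carry the Oct4-GFP (OG2) reporter and shared the iCD3 medium. The methods put the change to N2B27 with 2iL after 7 days or at another set time. That lies near the split between early and late days, so time and medium cannot be told apart where late and early days are compared. The ESCs also came from OG2 embryos and grew in N2B27 with 2iL. Infected cultures are mixtures of cells that took up different amounts of virus, and in such bulk samples fewer open cells and less open DNA per cell cannot be told apart.

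LIN28A and LIN28B bind let-7 microRNA precursors and block their maturation, LIN28A by recruiting terminal uridylyltransferases to them, and both are known as genes of early embryonic and pluripotent cells. MYC, MYCN and MYCL form dimers with MAX that bind E-box sequences in the promoters of genes for growth, ribosome assembly and nucleotide synthesis. MYC and MYCL have both been used as reprogramming factors, and let-7 is known to repress MYC family messages, so the LIN28 and MYC genes meet in the same circuit.

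The level of a region in a library was the number of tags piled up at the peak summit. A relative level divided that pileup by the median pileup of the same library at the 14217 regions that had a peak in all 20 libraries. That median ran from 16 to 60 tags and the number of peaks per library from 44126 to 125467. The sequencing depth is unknown, and a region without a peak was not detectable at this depth rather than shown to be closed. Distances are from the 5′ end of the gene to the summit, with negative values upstream.

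The ESC libraries are named as ESC by title, while another label field names MEF for them. Peaks at the promoters of 10 ESC marker genes were found for 10 of 10 genes in every ESC library and for 5 in MEF, and the 10 fibroblast markers had a peak for 10 of 10 in MEF and for 7 to 8 in ESCs. The NanogN70 day 3 library stood apart: 11 of 12 leukocyte marker promoters had a peak in it, with a summed relative level of 11.7, and Cd79a was the 1 at 0. The other 15 time course libraries had a peak at 2 to 4 of the 12, with summed levels from 1.30 to 2.58, and Cd3e, a defining T cell gene, had no peak in any of these 15. MEF had a peak at 5 of the 12, with a summed level of 2.15, and the ESC libraries at 6, 8 and 8, with 3.06, 3.47 and 3.52. In 2 ESC libraries Cd3e had a peak, so peaks at these promoters were not limited to leukocytes, but the summed level of 11.7 was seen on NanogN70 day 3 alone. What lies behind it was not tested. For a number of results the value without day 3 is also given.

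The sequences below were read from the mm10 assembly on the plus strand, 151 bases centred on the summit of the highest-scoring peak. The first 4 are the regions that had a peak in MEF, none in ESCs and a match to the AP-1 motif TGANTCA, the site of JUN and FOS dimers, within 25 bases of the summit. The capitals mark the matches inside that window.
Lin28b +88.2 kb, chr10:45398117-45398267, intron of Lin28b: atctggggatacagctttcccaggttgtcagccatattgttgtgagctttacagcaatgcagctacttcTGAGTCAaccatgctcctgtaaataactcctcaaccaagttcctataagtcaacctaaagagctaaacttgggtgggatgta
Lin28b +27.6 kb, chr10:45458758-45458908, across an exon of Lin28b: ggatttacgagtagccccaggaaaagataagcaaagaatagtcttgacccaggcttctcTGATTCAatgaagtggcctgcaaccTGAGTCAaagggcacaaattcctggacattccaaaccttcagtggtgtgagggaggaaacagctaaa
Myc +13.6 kb, chr15:61998939-61999089, intergenic: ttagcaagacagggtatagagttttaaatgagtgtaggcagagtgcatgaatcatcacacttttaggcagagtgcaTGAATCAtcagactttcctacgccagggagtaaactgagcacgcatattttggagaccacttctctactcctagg
Mycl -4.8 kb, chr4:122990765-122990915, intergenic: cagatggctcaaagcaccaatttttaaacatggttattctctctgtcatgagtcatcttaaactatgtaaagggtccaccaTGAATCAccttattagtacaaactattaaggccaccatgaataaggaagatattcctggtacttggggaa

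The next sequence lies at the Lin28b start site, the 1 promoter region among the 23 with the E-box CACGTG, the core site of MYC and MAX dimers, near its summit. The capitals mark the E-box, which reads the same on both strands.
Lin28b +0.2 kb, chr10:45486079-45486229, first part of Lin28b: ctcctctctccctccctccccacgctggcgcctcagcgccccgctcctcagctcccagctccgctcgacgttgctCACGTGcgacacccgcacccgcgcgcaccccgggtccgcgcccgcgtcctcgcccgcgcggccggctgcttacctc

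The regions below carry the time course results. They are the 2 regions with a peak on 3 or more days more in one path, the ESC-only region found in most libraries at Lin28b, Mycn and Mycl, and the region that opened late at Mycl without a peak in MEF or ESCs. None of the 6 motifs searched had a match near the summit in them, so no letters are in capitals.
Lin28a -0.2 kb, chr4:134018942-134019092, at the start site, in an intron of the antisense gene Gm13061: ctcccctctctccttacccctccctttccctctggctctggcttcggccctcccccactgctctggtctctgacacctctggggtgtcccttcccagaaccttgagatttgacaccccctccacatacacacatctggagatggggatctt
Myc +18.5 kb, chr15:62003777-62003927, intergenic: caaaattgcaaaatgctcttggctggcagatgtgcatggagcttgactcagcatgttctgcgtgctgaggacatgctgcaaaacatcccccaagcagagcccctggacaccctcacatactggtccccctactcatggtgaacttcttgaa
Lin28b +40.0 kb, chr10:45446277-45446427, intron of Lin28b: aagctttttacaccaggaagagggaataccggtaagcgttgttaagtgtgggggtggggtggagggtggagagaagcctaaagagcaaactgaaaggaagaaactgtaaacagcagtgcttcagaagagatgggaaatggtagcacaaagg
Mycn +14.7 kb, chr12:12927183-12927333, intergenic: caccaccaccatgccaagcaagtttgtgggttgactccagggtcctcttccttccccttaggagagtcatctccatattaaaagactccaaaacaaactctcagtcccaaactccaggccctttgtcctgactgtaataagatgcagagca
Mycl +3.1 kb, chr4:122998651-122998801, intron of Mycl: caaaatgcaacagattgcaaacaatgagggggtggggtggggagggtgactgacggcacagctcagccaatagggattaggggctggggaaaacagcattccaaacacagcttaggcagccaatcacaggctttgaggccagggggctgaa
Mycl +18.4 kb, chr4:123013947-123014097, intergenic: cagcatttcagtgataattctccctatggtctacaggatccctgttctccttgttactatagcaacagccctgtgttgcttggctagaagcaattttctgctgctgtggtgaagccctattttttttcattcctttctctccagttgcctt

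Regions open in ESCs but not in MEF made up much of these loci, and more of them gained a peak with NanogN70 than with Nanog. ESC-only regions, with a peak in at least 2 of 3 ESC libraries and none in MEF, numbered 18 of 65 (27.7%), beside 16.5% of all regions of the genome. MEF-only regions, with a peak in MEF and in no ESC library, numbered 6 of 65 (9.23%), beside 22.2% of all regions. A further 15 regions were shared by MEF and ESCs, 15 were transient, with a peak in the time course but neither in MEF nor in at least 2 ESC libraries, and 11 fell in no class. Of the 65, 7 had a peak in all 20 libraries (10.8%, beside 4.23% of all regions), and 18 had one in a single library (27.7%, beside 41.4%). The 7 include regions at the start sites of neighbouring genes, Dhdds (+17.8 kb from Lin28a) and Trit1 (+20.9 kb from Mycl), which count as distal here. With the same number of top peaks taken from each library, the ESC-only regions numbered 7 and the MEF-only regions 3.

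With NanogN70, 11 of the 18 ESC-only regions had a peak on at least 1 day (61.1%), beside 30.8% of all ESC-only regions. Without the day 3 libraries this was 9 of 18 (50%), beside 26.9% of all ESC-only regions. With Nanog it was 5 of 18 (27.8%), beside 17.3%. With a minimum score of 100 there were 12 ESC-only regions, of which 5 had a peak with NanogN70 and 2 with Nanog. With the same number of top peaks in each library there were 7, of which 6 and 3 had one. The genome shares were not computed for these settings. The other 7 ESC-only regions had a peak on no day of either path. By day, NanogN70 had a peak in 0, 0, 2, 1, 5, 3, 3 and 6 of the 18 from the first to the last time point, and Nanog in 0, 0, 1, 1, 2, 1, 3 and 2. NanogN70 had more on days 3, 7, 8 and 12, and Nanog had more on no day. Over all ESC-only regions of the genome NanogN70 was likewise above Nanog at every time point, with 4.42% against 1.57% on day 0, 15.4% against 9.08% on day 7 and 14.2% against 5.87% on day 12. The ESC marker promoters with a peak numbered 9 of 10 on NanogN70 day 12, with a summed relative level of 3.59, and 3 of 10 on Nanog day 12, with 1.08. The other 14 time course libraries had 3 to 5. In the ESC libraries all 10 had a peak, with much higher summed levels of 12.5, 13.2 and 13.3. The part of these markers in the counts of ESC-only regions was not tested.

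Of the 6 MEF-only regions, 5 had a peak on at least 1 day with NanogN70 (83.3%, beside 44.5% of all MEF-only regions) and 4 with Nanog (66.7%, beside 45.4%). These peaks lay early: NanogN70 had 5, 3 and 1 on days 0, 1 and 3 and none later, and Nanog had 3, 2 and 1 on those days, none on days 5 to 10 and 1 on day 12. The share of all MEF-only regions with a peak was also lower late than early, at 36.5% on day 0 and 4.17% on day 12 with NanogN70, and at 31.2% and 6.52% with Nanog. The summed level of the 10 fibroblast markers was 9.51 in MEF, 8.13 on Nanog day 0, 2.33 on Nanog day 12, 8.00 on NanogN70 day 0 and 2.24 on NanogN70 day 12, and its part in these counts was not tested.

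**Figure D1:**
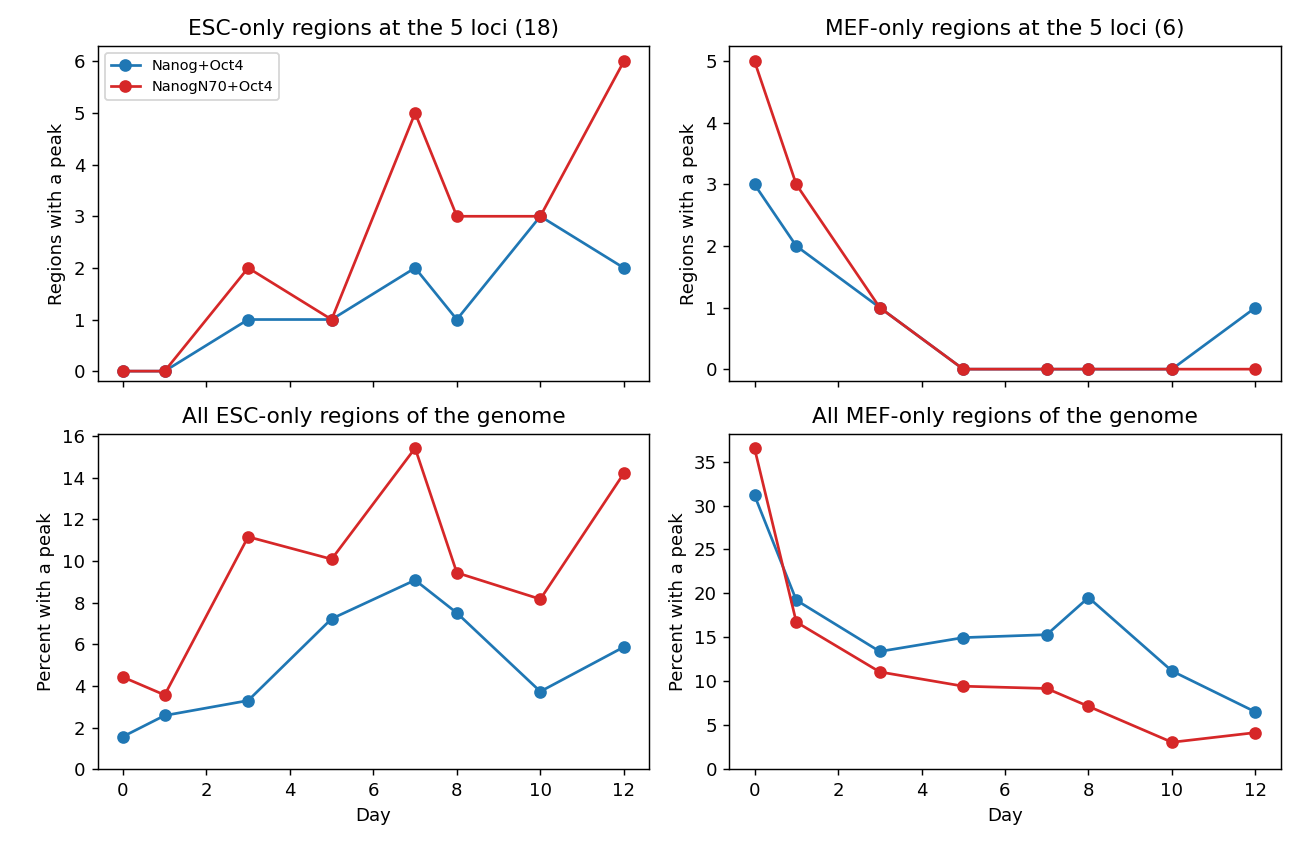
Number of ESC-only (18) and MEF-only (6) regions at the 5 loci with a peak on each day (top), and percent of all such regions of the genome (bottom), with 1 library per point. NanogN70 reached 6 of the 18 ESC-only regions on day 12 and Nanog 2, and MEF-only peaks were nearly all on days 0, 1 and 3.

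Over all 65 regions, the NanogN70 libraries had a peak in 19, 13, 19, 14, 17, 19, 19 and 21 and the Nanog libraries in 12, 12, 13, 17, 16, 13, 14 and 14, a mean difference of 3.75 regions. The difference was 3.43 without day 3, 2.25 with the same number of top peaks in each library and 2.12 with a minimum score of 100. NanogN70 was higher on every day but day 5. It also had more open regions in the whole genome on day 0 (95022 against 59476), day 1 (66866 against 54133), day 3 (76678 against 49359) and day 12 (48470 against 41080). On days 8 and 10 it had more of these regions open than Nanog (19 against 13 and 19 against 14) while it had fewer open regions in the genome as a whole, 47680 against 65582 and 38041 against 41814. Of the 48 regions with a peak in the time course, 1 had a peak on 3 or more days more with NanogN70 (2.08%, beside 6.39% of all regions with a time course peak) and 1 with Nanog (2.08%, beside 5.45%). The NanogN70 count was 3 with the same number of top peaks and 2 with a minimum score of 100, and the Nanog count was 0 without day 3 or with a window of 10 kb.

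**Figure D2:**
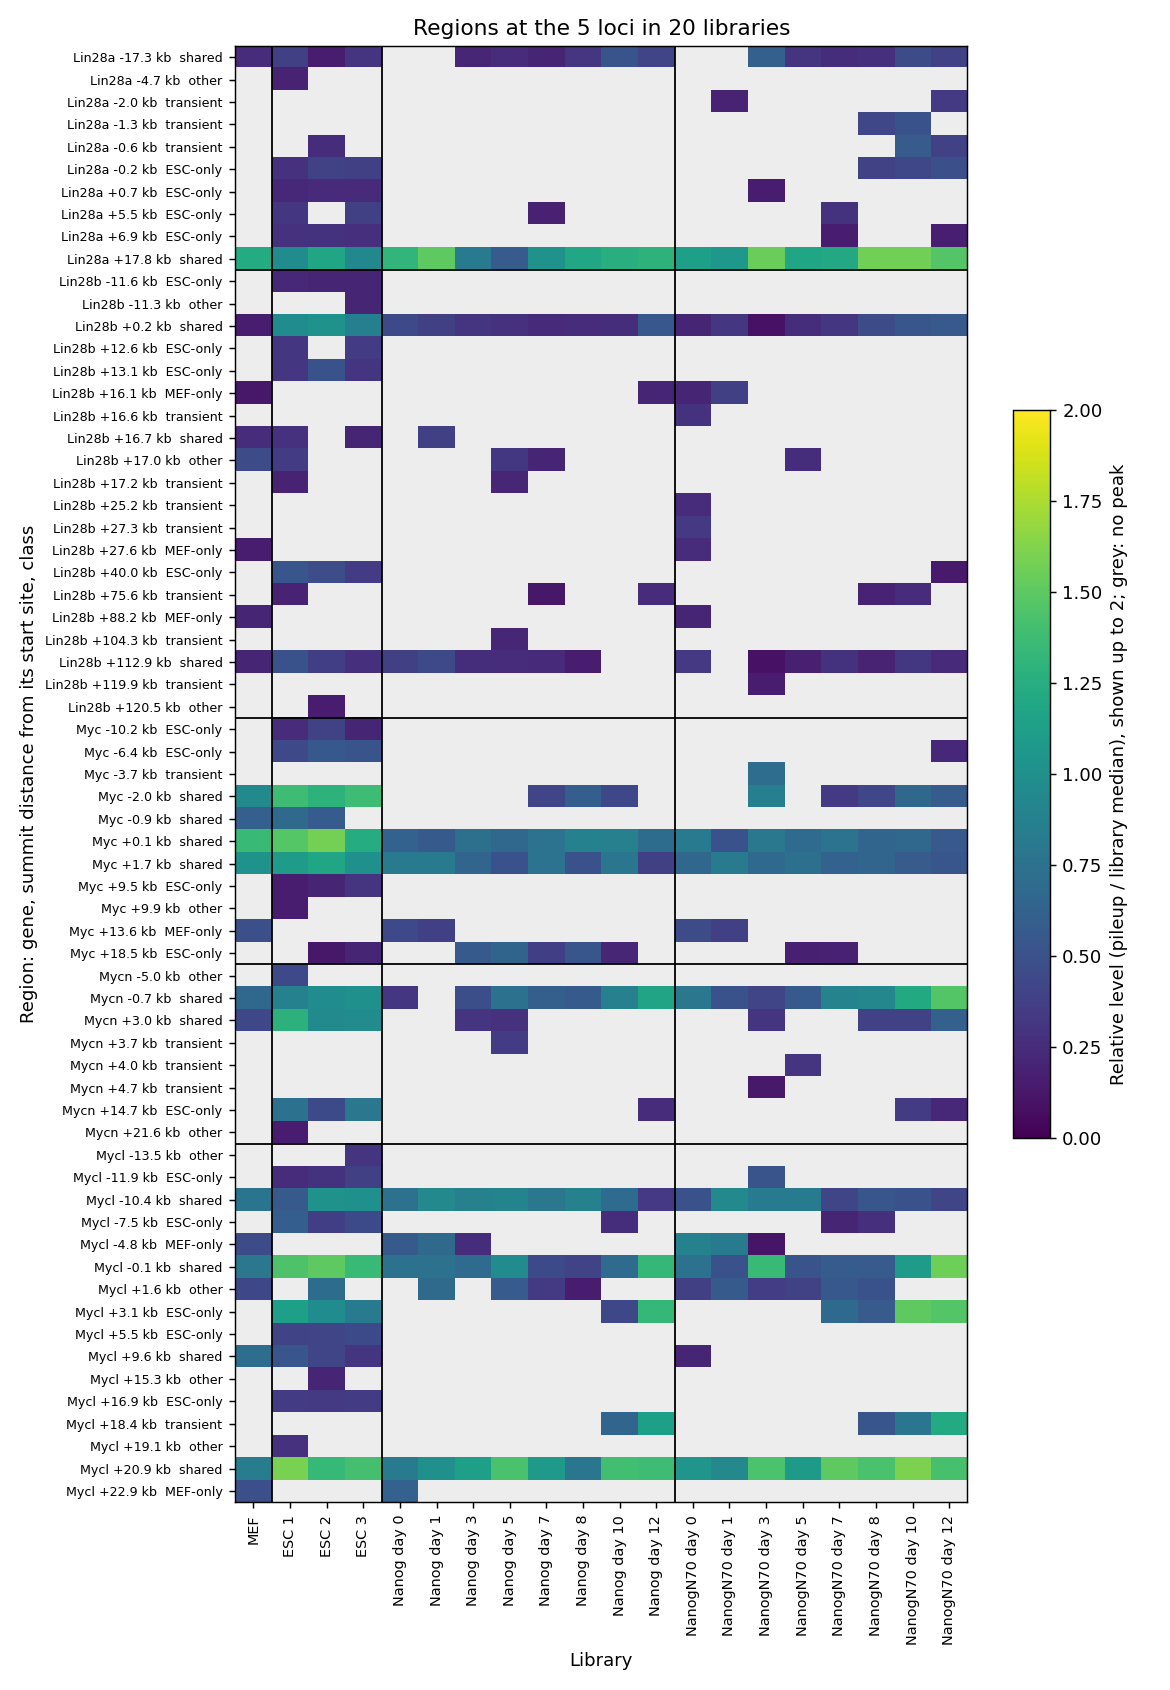
Relative level (summit pileup divided by the library median, colour) of the 65 regions (rows, by gene and distance of the summit from the start site) in the 20 libraries (columns), with grey for no peak. The Lin28a region at -0.2 kb and the Mycl region at +3.1 kb have no peak in MEF, a peak in all 3 ESC libraries and peaks in NanogN70 from days 8 and 7.

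Lin28a encodes the LIN28 form that is typical of pluripotent cells. At its start site (-0.2 kb, chr4:134018423-134019124) MEF had no peak, and the ESC libraries had pileups of 9, 15 and 11 tags. Nanog had no peak there on any of 8 days. NanogN70 had 10, 12 and 20 tags on days 8, 10 and 12, with none before. The relative levels on those 3 days were 0.385, 0.429 and 0.488, and the ESC level was 0.352 ± 0.0616 (SD, n = 3). This is the region that had a peak on 3 more days with NanogN70. The antisense gene Gm13061 overlaps it, and ATAC-seq has no strand, so openings of the 2 genes cannot be told apart.

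A further 3 Lin28a promoter regions were transient and had peaks in NanogN70 only among the time course libraries. The region at -0.6 kb had 10 tags in 1 ESC library, 16 on NanogN70 day 10 and 16 on day 12. The region at -1.3 kb had 11 on day 8 and 14 on day 10, and that at -2.0 kb had 3 on day 1 and 14 on day 12. On NanogN70 days 8, 10 and 12, between 2 and 3 separate peaks thus lay upstream of the gene or at its start.

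Regions within Lin28a, near the starts of shorter transcripts, were also ESC-only and appeared for a day or 2. At +6.9 kb the ESC libraries had 9, 11 and 8 tags, NanogN70 had 6 on day 7 and 7 on day 12, and Nanog had no peak. At +5.5 kb 2 ESC libraries had 10 and 11, both paths had a peak on day 7 alone, with 7 tags for Nanog and 11 for NanogN70. At +0.7 kb the ESC libraries had 7, 9 and 7, and the 1 time course peak was that of NanogN70 day 3, with 9 tags, in the library that stood apart. The region at +17.8 kb, open in all 20 libraries, is the promoter of the neighbouring gene Dhdds.

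Taking the highest summit within 2 kb of any Lin28a start, the gene had a peak in 1 of 8 Nanog and 6 of 8 NanogN70 libraries. The relative levels with NanogN70 were 0.289, 0.423, 0.571 and 0.488 on days 7, 8, 10 and 12, beside 0.362 ± 0.0437 in ESCs (SD, n = 3), and 0, 0.188, 0.150 and 0 on days 0, 1, 3 and 5. The NanogN70 day 1 level came from 3 tags, the lowest pileup of that library, and day 3 is the library that stood apart. The only Nanog level above 0 was 0.184, on day 7. With 7 of 16 libraries Lin28a was below the 8 needed to enter the test across genes, so it has no adjusted p there. On the log2 scale, with a library without a peak set to its lowest pileup, days 7 to 12 minus days 0 to 5 was 1.45 with NanogN70 (two-sided exact permutation p = 0.0286, the smallest that 4 against 4 days allow) and -0.20 with Nanog (exact p = 0.371). With a peak in 1 Nanog library, the Nanog value mostly follows the lowest pileups and medians of the libraries. It was 0.049 with a floor of 0.5 times the lowest pileup. The mean difference between the paths over 8 days was 0.59 (exact sign-flip p = 0.172). With peaks of a score of at least 100 alone, the NanogN70 change was 1.01 (exact p = 0.257) and the path difference 0.09 (exact p = 0.891). The path difference was 1.22 with a floor of 0.5 times the lowest pileup (exact p = 0.0391), so it depended on the value given to libraries without a peak. With summed pileups it was 1.15 (exact p = 0.125). With no filter on genes, the adjusted p was 0.350 for the change with NanogN70, 0.687 for that with Nanog and 0.493 for the path difference (Benjamini-Hochberg over the exact permutation tests).

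**Figure D3:**
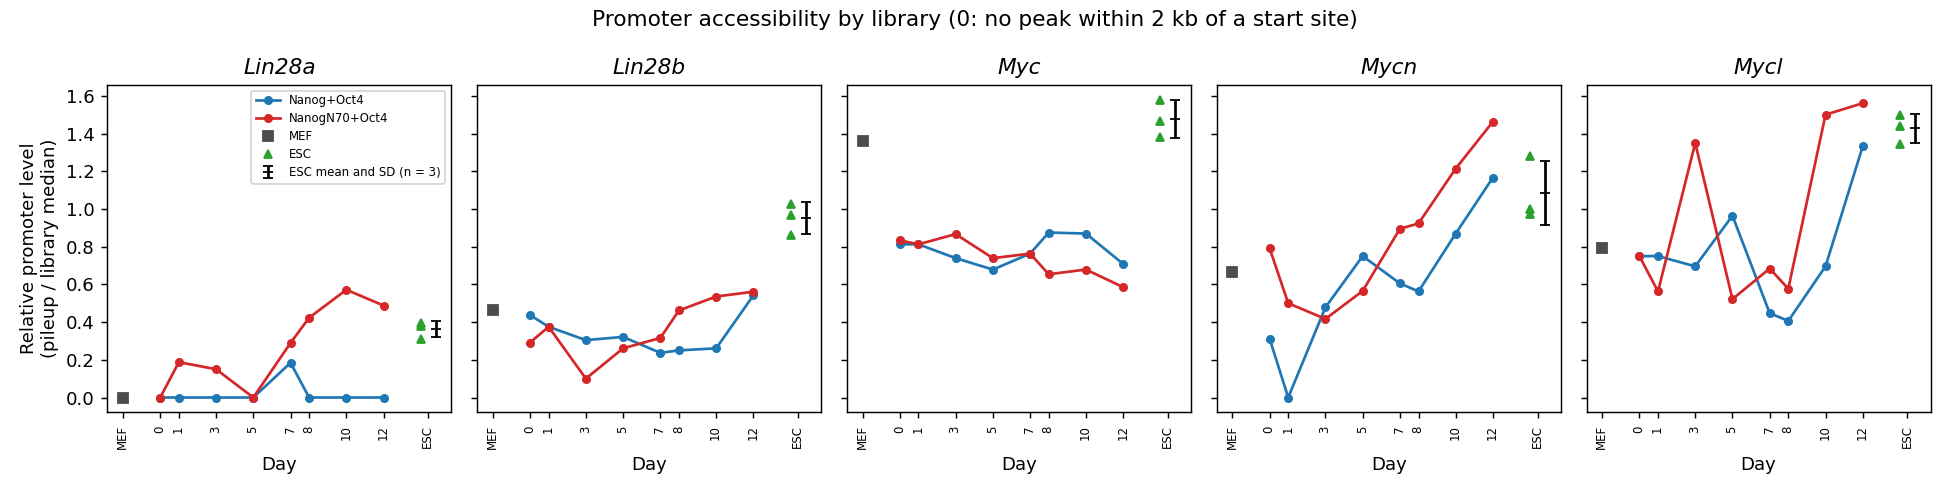
Relative promoter level (highest summit pileup within 2 kb of a start site divided by the library median, y axis) of the 5 genes by day (x axis) for Nanog+Oct4 and NanogN70+Oct4, with MEF, the 3 ESC libraries and their mean with SD. Lin28a lies at 0.289 to 0.571 on NanogN70 days 7 to 12 and at 0 in 7 of 8 Nanog libraries, and all 16 Myc points lie under MEF and the ESCs.

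Lin28b, the paralogue of Lin28a, had an open start site in every library. The pileup at +0.2 kb (chr10:45485572-45487173) was 6 in MEF and 31, 39 and 25 in ESCs. With Nanog it was 7, 6, 7, 8, 9, 8, 6 and 13 over the 8 days, and with NanogN70 it was 5, 5, 6, 6, 12, 12, 15 and 23. The raw NanogN70 pileups of days 7 to 12 were all above those of days 0 to 5, whereas in Nanog only day 12 stood above the rest. Divided by the library median, the NanogN70 levels of this region were 0.208, 0.312, 0.100 and 0.261 on the 4 early days and 0.316, 0.462, 0.536 and 0.561 on the 4 late days, again without overlap. All 16 time course libraries lay below the ESCs: the relative promoter level was 0.952 ± 0.0833 in ESCs (SD, n = 3), 0.542 on Nanog day 12 and 0.561 on NanogN70 day 12.

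On the log2 scale of relative promoter levels, days 7 to 12 minus days 0 to 5 was 0.99 with NanogN70 (exact permutation p = 0.0571, adjusted p = 0.356) and -0.23 with Nanog (exact p = 0.486, adjusted p = 0.808). The NanogN70 value was 0.58 without day 3 (exact p = 0.0857) and 0.10 with the summits near all Lin28b starts summed (exact p = 1). It was 1.65 with a minimum score of 100 and 0.93 with scaling by the median of all summits (exact p = 0.0286 each). The Nanog value was -0.52 without day 12 (exact p = 0.0571). These promoter levels take the highest summit near any start of the gene, which was not that at +0.2 kb in MEF, on Nanog day 5 (9 tags at +17.0 kb) and on NanogN70 days 0 (7 tags at +16.6 kb) and 1 (6 tags at +16.1 kb). The paths did not differ in their mean over 8 days by more than the spread between days (-0.01, SD of the daily differences 0.849, exact p = 0.984), and the mean was 0.21 without day 3 (exact p = 0.375). The E-box printed above lies under this region, and a match to it was found near the summit in 1.14% of all regions.

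Few distal regions of Lin28b had a peak in more than 1 time course library. Its ESC-only regions were at +40.0, +13.1, +12.6 and -11.6 kb. At +40.0 kb the ESC libraries had 17, 18 and 10 tags, and the 1 time course peak was NanogN70 day 12, with 6. The other 3 ESC-only regions had no peak on any day. The MEF-only regions at +88.2 and +27.6 kb, both with an AP-1 match, had 8 and 6 tags in MEF, 5 and 6 on NanogN70 day 0 and nothing later. The MEF-only region at +16.1 kb, near the start of a shorter transcript, had 5 in MEF, 5 and 6 on NanogN70 days 0 and 1, and 5 on Nanog day 12.

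Myc had a promoter open in every library, below MEF and ESCs throughout both paths. The start site region (+0.1 kb, chr15:61984616-61985962) had a pileup of 53 in MEF and of 47, 60 and 36 in ESCs. With Nanog it was 10, 9, 17, 19, 29, 28, 20 and 17, and with NanogN70 it was 20, 8, 48, 16, 29, 17, 19 and 23. Relative promoter levels were 1.36 in MEF, 1.48 ± 0.100 in ESCs (SD, n = 3), 0.679 to 0.875 with Nanog and 0.585 to 0.867 with NanogN70, so the time course overlapped with neither.

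Between the paths the Myc promoter differed by -0.08 on the log2 scale (exact sign-flip p = 0.344, adjusted p = 0.661). Days 7 to 12 minus days 0 to 5 was -0.28 with NanogN70 (exact p = 0.0571, adjusted p = 0.356) and 0.08 with Nanog (exact p = 0.429, adjusted p = 0.783). With summed pileups the direction turned, to 0.14 between the paths (exact p = 0.133) and 0.17 with NanogN70 (exact p = 0.114). A region upstream at -2.0 kb, also shared by MEF (37 tags) and ESCs (44, 49 and 40), had no peak in either path on days 0, 1 and 5. It had 16, 19 and 10 on Nanog days 7, 8 and 10, and 52, 13, 11, 19 and 24 on NanogN70 days 3, 7, 8, 10 and 12. Apart from NanogN70 day 3, its time course peaks thus lay on day 7 or later.

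The distal regions of Myc had peaks at different times by class. The MEF-only region at +13.6 kb, with an AP-1 match, had 19 tags in MEF, 7 and 6 on Nanog days 0 and 1, and 11 and 6 on NanogN70 days 0 and 1, with no peak from day 3 on in either path. The ESC-only region at +18.5 kb was the 1 with more days in Nanog: it had 13, 18, 14, 17 and 5 tags on Nanog days 3, 5, 7, 8 and 10, and 4 and 7 on NanogN70 days 5 and 7. Its ESC pileups were 5 and 6 in 2 of 3 libraries, so it was higher in the middle of the Nanog path than in ESCs. Without day 3 it no longer differed by 3 days between the paths. The ESC-only region at -6.4 kb had 14, 21 and 15 in ESCs and 9 on NanogN70 day 12, and those at -10.2 and +9.5 kb had no peak on any day. The region at -3.7 kb had a peak in 1 library alone, NanogN70 day 3, with 43 tags.

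Mycn, known for its role in embryonic and neural progenitor growth, had a promoter peak in 19 of the 20 libraries. The region at -0.7 kb (chr12:12941495-12943753) had 26 tags in MEF and 28, 37 and 29 in ESCs. With Nanog it had 5 on day 0, no peak on day 1, and 11, 21, 23, 18, 20 and 28 on days 3 to 12. With NanogN70 it had 19, 8, 25, 13, 34, 24, 34 and 60. Relative promoter levels on day 12 were 1.17 with Nanog and 1.46 with NanogN70, beside 0.667 in MEF and 1.09 ± 0.170 in ESCs (SD, n = 3).

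Both paths had higher Mycn promoter levels on days 7 to 12 than on days 0 to 5. The log2 difference was 1.01 with Nanog (exact permutation p = 0.114, adjusted p = 0.520) and 0.99 with NanogN70 (exact p = 0.0286, the smallest possible, adjusted p = 0.316), and the latter was 0.86 without day 12 (exact p = 0.0571). NanogN70 was above Nanog on 6 of 8 days, by 0.53 on average (SD of the daily differences 0.647, exact sign-flip p = 0.0625, adjusted p = 0.329). This difference was 0.63 without day 3 (exact p = 0.0469), 0.41 without day 0 (exact p = 0.125) and 0.56 without day 12 (exact p = 0.0938). The region at +3.0 kb inside the gene had 17 tags in MEF and 41, 36 and 28 in ESCs, 7 and 8 on Nanog days 3 and 5, and 18, 10, 11 and 25 on NanogN70 days 3, 8, 10 and 12. The ESC-only region at +14.7 kb had 24, 17 and 23 in ESCs, 6 on Nanog day 12, and 10 and 9 on NanogN70 days 10 and 12.

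Mycl had 2 regions away from its main start site whose first peaks came late in both paths. Its intronic region at +3.1 kb (chr4:122998413-122999751), within 2 kb of an alternative start, had no peak in MEF and 36, 37 and 24 tags in ESCs. With Nanog it had 10 on day 10 and 32 on day 12, and with NanogN70 it had 26, 15, 42 and 60 on days 7, 8, 10 and 12, with no earlier peak in either path. The last relative levels were 1.33 for Nanog and 1.46 for NanogN70, and the ESC level was 0.975 ± 0.149 (SD, n = 3). The first peak was thus seen on day 7 in the NanogN70 path and 3 days later in the Nanog path, and the last libraries of both paths lay above the ESC mean.

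A region at +18.4 kb (chr4:123013749-123014491) had no peak in MEF or in any ESC library. It had 15 and 27 tags on Nanog days 10 and 12, and 14, 22 and 50 on NanogN70 days 8, 10 and 12. The last relative levels were 1.13 for Nanog and 1.22 for NanogN70. These are 5 of the 6 time course libraries in which the intronic region had a peak.

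The Mycl start site (-0.1 kb, chr4:122995328-122996686) was open in all 20 libraries, with 31 tags in MEF and 46, 57 and 39 in ESCs. With Nanog it had 12, 12, 16, 27, 17, 13, 16 and 32, and with NanogN70 it had 18, 8, 81, 12, 22, 15, 31 and 64. The value of 81 is from NanogN70 day 3. Promoter levels, which also take in the intronic region, differed between the paths by 0.26 on the log2 scale (exact sign-flip p = 0.297, adjusted p = 0.625). Days 7 to 12 minus days 0 to 5 was 0.41 with NanogN70 (exact permutation p = 0.314, adjusted p = 0.636) and -0.29 with Nanog (exact p = 0.514, adjusted p = 0.825). Without day 3 the path difference was 0.16 (exact p = 0.531) and the NanogN70 value 0.70 (exact p = 0.257). Without day 12 the change was 0.19 with NanogN70 (exact p = 0.571) and -0.64 with Nanog (exact p = 0.0571). The NanogN70 change was 0.81 with a minimum score of 100 (exact p = 0.257) and 0.63 with summed pileups (exact p = 0.0286).

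Upstream of Mycl, the MEF-only region at -4.8 kb, with an AP-1 match, had 18 tags in MEF, 9, 11 and 6 on Nanog days 0, 1 and 3, and 21, 13 and 7 on NanogN70 days 0, 1 and 3, with none later. The ESC-only region at -7.5 kb had 19, 14 and 13 in ESCs, 6 on Nanog day 10, and 8 and 7 on NanogN70 days 7 and 8. The ESC-only region at -11.9 kb had 8, 11 and 11 in ESCs, and its 1 time course peak was NanogN70 day 3, with 31. Those at +5.5 and +16.9 kb had no peak on any day. The MEF-only region at +22.9 kb, in an intron of the neighbour Trit1, had 19 in MEF and 10 on Nanog day 0.

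**Figure D4:**
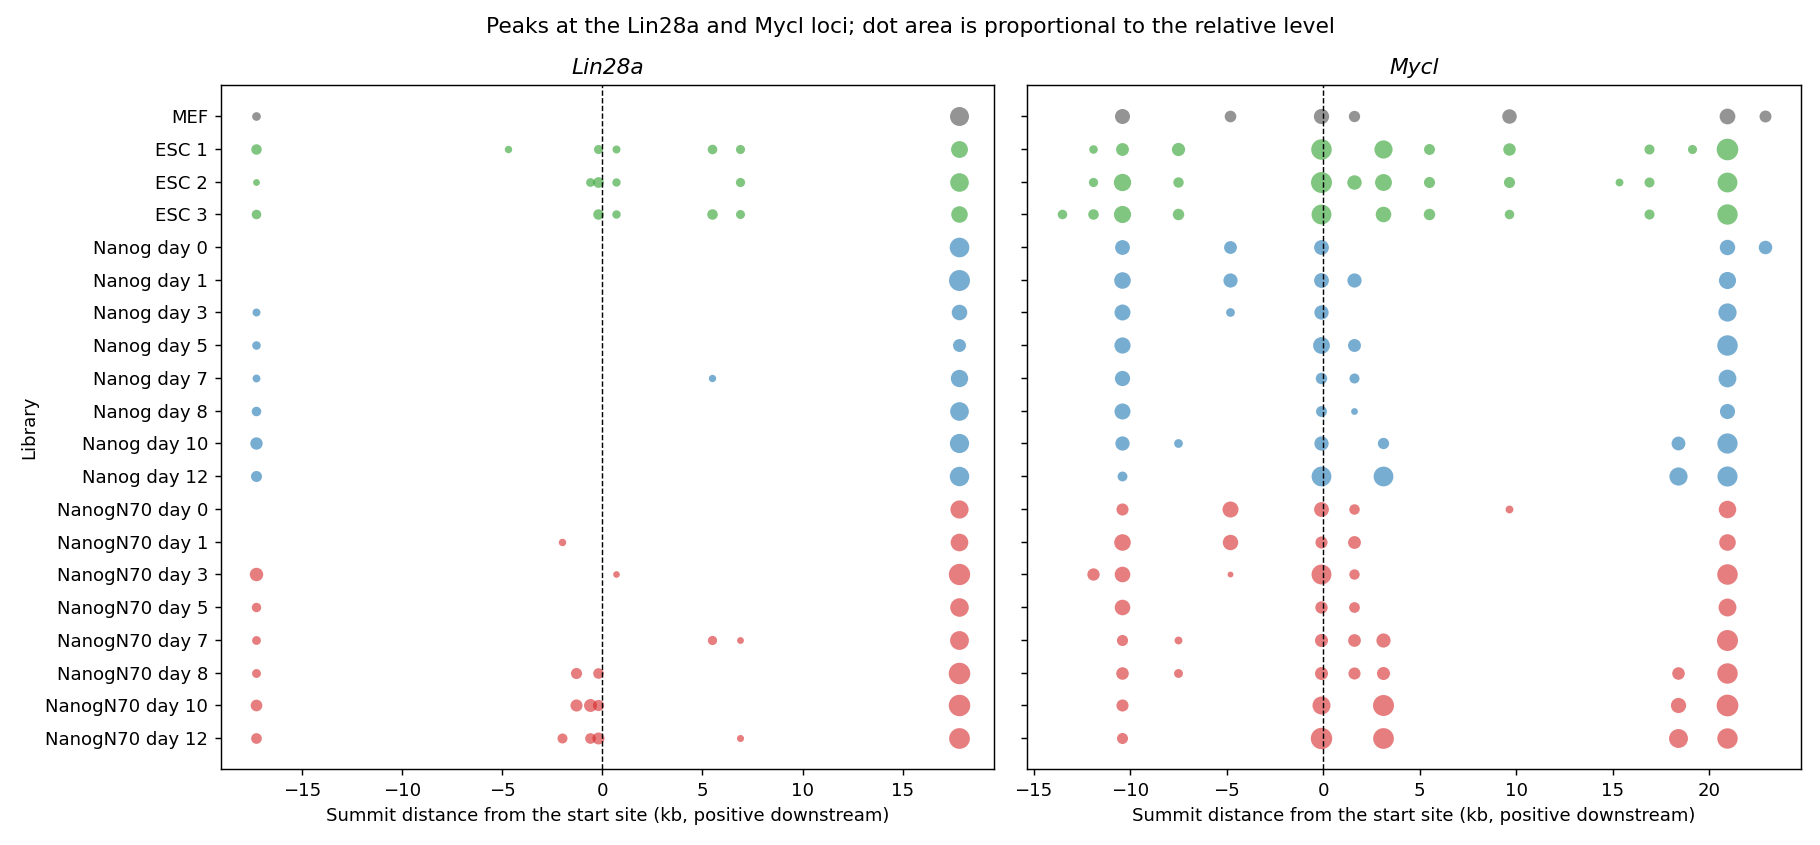
Peaks at the Lin28a and Mycl loci by distance of the summit from the start site (x axis, kb) and library (y axis), with dot area in proportion to the relative level and colours for MEF (grey), ESC (green), Nanog (blue) and NanogN70 (red). Peaks at and just upstream of the Lin28a start are seen in NanogN70 on days 8 to 12 and, at -2.0 kb, on day 1, and in no Nanog library, and the Mycl regions at +3.1 and +18.4 kb carry peaks late in both paths.

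The promoter tests were run for 14343 protein-coding genes, and none passed an adjusted p of 0.05 in any of them. At an unadjusted exact permutation p under 0.05, 7.64% of genes were higher and 8.03% lower with NanogN70 than with Nanog, and none of the 4 members tested were among them. For days 7 to 12 against days 0 to 5 it was 3.72% higher and 3.67% lower with Nanog, with no member, and 5.7% higher and 3.35% lower with NanogN70, with 1 member, Mycn. The smallest p that the 256 sign flips allow is 0.00781 and that of the 70 arrangements of 4 against 4 days is 0.0286. An adjusted p under 0.05 would thus need a large share of all genes at these values, so the adjustment cannot decide on single genes. Days are not replicates, so these tests ask whether libraries differ across days. The late days also follow or lie near the change of medium, which cannot be told apart from time.

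Whether the change over days differed between the paths was tested on the daily differences, a test added after the others had been seen. The change was larger with NanogN70 by 1.65 on the log2 scale at Lin28a (exact permutation p = 0.0286, the smallest possible) and by 1.22 at Lin28b (exact p = 0.0286, adjusted p = 0.784). Lin28a had a promoter peak in 1 of 8 Nanog and 6 of 8 NanogN70 libraries. Its other values are the lowest pileup over the library median, so they follow the library and not the gene. Without day 3 the differences at Lin28a and Lin28b were 1.66 and 0.89, and without day 0 they were 1.53 and 1.23. Each had an exact p of 0.0571, so that both calls ended. At Lin28b the call also ended without day 12 (1.402, exact p = 0.0571), with a minimum score of 100 (1.44, exact p = 0.0857) and with summed pileups (0.46, exact p = 0.629). At Lin28a it also ended with a floor of 0.5 times the lowest pileup (1.90, exact p = 0.0857). Scaling by the median of all summits gave 1.27 there (exact p = 0.0571), but it shifts all genes of a library alike. The difference was 0.70 at Mycl (exact p = 0.171; 1.05 and exact p = 0.0286 without day 3), -0.02 at Mycn (exact p = 0.971) and -0.36 at Myc (exact p = 0.0571). Of all genes tested, 2.25% were higher and 1.39% lower at this unadjusted p.

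Genes that work with the members were taken as 4 lists of 38 tested genes, of which 5 were higher and 2 lower with NanogN70 than with Nanog at an unadjusted exact p under 0.05, beside 7.64% and 8.03% of all genes. Of 8 genes tested for the processing and uridylation of let-7, 3 were higher and none lower with NanogN70 in this comparison. The list's median log2 difference was 0.20, beside -0.0019 over all genes. The 3 were Xpo5, the exporter of microRNA precursors (0.37, exact p = 0.0156, adjusted p = 0.219), Dgcr8, the partner of the nuclease Drosha (0.27, exact p = 0.0156, adjusted p = 0.219), and Tut7, a uridylyltransferase that LIN28A recruits (0.24, exact p = 0.0391, adjusted p = 0.291). In the same list 3 genes were higher on days 7 to 12 with NanogN70, beside 5.7% of all genes, and 2 with Nanog, beside 3.72%, and none were lower.

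Of 10 MAX network genes, Mlxipl, a glucose-responsive partner of MLX, was higher with NanogN70 (0.76, exact p = 0.00781, adjusted p = 0.219) and Mlx was lower (-0.44, exact p = 0.0312, adjusted p = 0.264), and Mxd1, a MAX-binding repressor, had a difference of 0.22 (exact p = 0.117). None of the 10 passed the unadjusted threshold over days in either path. Of 10 let-7 targets, the cyclin gene Ccnd2 was higher with NanogN70 (0.40, exact p = 0.0234, adjusted p = 0.256), and the chromatin protein gene Hmga2 was lower (-0.47, exact p = 0.0469, adjusted p = 0.299). The S-phase factor gene E2f2 had a difference of 0.22 (exact p = 0.125). Over days, 1 of these targets was higher and 2 were lower with NanogN70, beside 5.7% and 3.35% of all genes, and none passed with Nanog. At an unadjusted exact p under 0.05, the change over days was larger with NanogN70 in 5 of the 38 genes and smaller in none, beside 2.25% and 1.39% of all genes. The 5, named after their values were seen, were Igf2bp1 (1.57), Trim71 (1.30), Igf2bp3 (1.00), Dis3l2 (0.73) and Ldha (0.43), each with an exact permutation p of 0.0286 and an adjusted p of 0.784. Of 10 MYC targets none passed between the paths: the largest differences were 0.22 at Cdk4, 0.18 at Odc1, the first enzyme of polyamine synthesis, and -0.15 at Rcc1. Over days, 1 MYC target was higher and 1 lower with Nanog, beside 3.72% and 3.67% of all genes, and none passed with NanogN70.

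Matches to the AP-1 motif were found in 4 of the 6 MEF-only regions, beside 15.7% of all MEF-only regions and 6.12% of all regions. None of the 18 ESC-only regions had a match to any of the 6 motifs searched on both strands: OCT (ATGCNAAT), SOX (AACAANG), AP-1 (TGANTCA), TEAD (GGAATG), E-box (CACGTG) and KLF (GGGNGTGG). Of all ESC-only regions, 1.54% had the OCT, 4.95% the SOX, 1.60% the AP-1, 3.55% the TEAD, 1.38% the E-box and 4.90% the KLF letters.

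The genes whose promoter levels were most like those of each member over the 20 libraries, among 14525 genes, are given as a description, since all share the same libraries and depths. They were Ppp1r26 (Pearson's r = 0.846), Cpne7 and Tmem130 for Lin28a, and Tunar (0.938), Rimbp2 and Pcdhac1 for Lin28b. For Myc they were Ephx2 (0.891), Cast and Nme2, for Mycn Tfdp1 (0.884), Mybl1 and Vangl2, and for Mycl Fam81a (0.840), Hrh2 and Mapk12.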

How the data were processed

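ATAC-seq libraries of MEFs, ESCs and 2 reprogramming paths were compared. Per the submitters' processing notes and the study's methods, the authors trimmed reads with Trim Galore 0.6.4, aligned them to mm10 with Bowtie2 2.4.5, removed reads with mapping quality under 30 using SAMtools 1.16.1, and called peaks per library with MACS 1.4.2 with a shift of 25 bases and all duplicates kept. Neither a Tn5 offset nor an input control is named in those sources. The deposited score of a peak is -10 times the log10 of its p-value (lowest 50), and the deposited signal at a summit is a tag pileup that is not scaled to depth, so depth is unknown and no counting interval is given.

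Peaks overlapping by 1 base were merged across the 20 libraries with Python 3.11.15, and genes came from GENCODE M21 on GRCm38 (mm10). Promoter levels used the highest summit within 2 kb of a start site, divided by the library median at common regions, with the lowest pileup of the library where no peak was found. Exact permutation tests were run for protein-coding genes with a peak in at least 8 of 16 time course libraries, with Benjamini-Hochberg adjustment. They were also run on simulated levels with independent normal noise, no floor values and no trend or dependence between days. That setting differs from the data, so it checks the computation and not how the tests behave here. The members and gene lists were chosen with earlier results of these data known. The test of the difference between the paths in the change over days, and the counts of ESC-only regions by path, were added after the other results had been seen. Regions were named if ESC-only, MEF-only or 3 or more days apart between the paths, up to 6 per gene, pathway genes by the 3 largest differences between the paths per list, and like genes by the 3 highest correlations. Shared and transient regions are named outside this rule, after their values were seen. Zcchc11 and Zcchc6 are older symbols of Tut4 and Tut7, so 8 of 10 names in that list are genes. The labels do not say whether the 3 ESC libraries came from separate cultures.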

Additional observations from a re-analysis of the deposited data

Results flagged for a closer look

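The change in promoter level from days 0 to 5 to days 7 to 12 differed between the paths at 2 members, in the test added after the data had been seen. At Lin28a the change was larger with NanogN70 by 1.65 on the log2 scale (exact permutation p = 0.0286). This gene had a promoter peak in only 1 of 8 Nanog and 6 of 8 NanogN70 libraries, too few for the test across genes, and the other values are the floor of each library. At Lin28b it was larger by 1.22 (exact permutation p = 0.0286, adjusted p = 0.784). Without day 3 and without day 0 neither reached an unadjusted p under 0.05 (1.66 and 1.53 at Lin28a, 0.89 and 1.23 at Lin28b, exact p = 0.0571 each). With no gene filter the adjusted p of Lin28a was 0.832 (Benjamini-Hochberg), and 523 of 14343 genes reached an unadjusted p under 0.05 in the same test. Since the smallest exact p is 0.0286, an adjusted p under 0.05 would need most genes at that value. The adjustment therefore cannot decide on these 2 members.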

How the results depend on the processing

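Of 224 results recomputed under alternative settings, 179 kept their direction and their side of an unadjusted p of 0.05, stayed within 1.5 times (counts of regions) or, for the mean difference in open regions, stayed within the SD of the ESC libraries (3.46 regions). Part of the 179 could not change: leaving out the gene filter kept all 20 member values and their unadjusted p as they were. Nor could the floor alter Lin28b, Myc or Mycl, which had a promoter peak in all 16 time course libraries. Where the promoter tests were rerun, 0 genes passed an adjusted p of 0.05. The cause of the changes below was not tested. With the same number of top peaks in each library, ESC-only regions numbered 7 and MEF-only regions 3, the ESC-only regions with a time course peak were 6 with NanogN70 and 3 with Nanog, and 3 regions had 3 or more days more with NanogN70. With a minimum score of 100 these last 3 counts were 5, 2 and 2. The region with more days in Nanog was lost (0) with a window of 10 kb and without day 3. Leaving out 1 ESC library gave 15 to 17 ESC-only and 6 to 7 MEF-only regions.

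Scaling by the median of all summits moved the median of all genes by 0.13 between the paths, 0.33 over days with Nanog and -0.39 for the difference in change. Before subtracting that shift, the path difference was 0.12 at Lin28b, 0.047 at Myc and 0.66 at Mycn (exact permutation p = 0.0391), the change with Nanog was 0.13 at Lin28a, 0.10 at Lin28b and 0.040 at Mycl, the change with NanogN70 was 0.93 at Lin28b (exact p = 0.0286), and the difference in change was 1.27 at Lin28a (exact p = 0.0571). This scaling shifts all genes of a library alike, so relative to the median of all genes the values are those of the main scaling by construction.

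With a floor of 0.5 times the lowest pileup, Lin28a gave 1.22 between the paths (exact p = 0.0391), 0.049 with Nanog and 1.90 for the difference in change (exact p = 0.0857). With a minimum score of 100, Lin28b gave 0.19 between the paths, 0.21 with Nanog, 1.65 with NanogN70 (exact p = 0.0286) and 1.44 for the difference in change (exact p = 0.0857), Mycn 0.54 between the paths (exact p = 0.0469), Lin28a 1.01 with NanogN70 (exact p = 0.257) and 0.09 between the paths (exact p = 0.891), and Mycl 0.07 between the paths. Without day 0, the path difference at Lin28b was 0.069, and the difference in change was 1.53 at Lin28a and 1.23 at Lin28b (exact p = 0.0571 each) and 0.25 at Mycn. Without day 3, the path difference was 0.21 at Lin28b and 0.63 at Mycn (exact p = 0.0469), and the difference in change 1.66 at Lin28a and 0.89 at Lin28b (exact p = 0.0571 each) and 1.05 at Mycl (exact p = 0.0286). Without day 12, Mycn gave 0.86 with NanogN70 (exact p = 0.0571), and the difference in change was 1.402 at Lin28b (exact p = 0.0571) and 0.049 at Mycn. With summed pileups, Myc gave 0.14 between the paths and 0.17 with NanogN70, Mycl 0.11 with Nanog and 0.63 with NanogN70 (exact p = 0.0286), Lin28b 0.10 with NanogN70 (exact p = 1), and the difference in change was 0.46 at Lin28b (exact p = 0.629) and 0.28 at Mycn. The path test and the test of the difference in change were paired by day, and no block by replicate number could be fitted, since only the ESC libraries carry such numbers.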
